A study of Mus musculus with 8 samples.

Results

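The proteasome genes were taken as every row of the count table whose mouse symbol starts with Psm, a letter from a to g and a number. This rule found 51 of the 18088 genes, and all 51 passed the filter on low counts. Of these, 46 encode parts of the proteasome, its activators, its inhibitor or its assembly chaperones. They divide into 5 genes of the interferon-inducible set (Psmb8, Psmb9, Psmb10, Psme1 and Psme2) and 41 others, called constitutive genes here. The remaining 5 matches were Psme2b, a copy of Psme2 at another place in the genome, the pseudogenes Psmb6-ps, Psmb6-ps2 and Psmb7-ps2, and Psmc3ip, which encodes a protein of meiotic recombination and no subunit. The cells were differentiated adipocytes of the mouse line 3T3-L1, wild type in the labels, that were detached and transfected with siRNA against Erk3 (siErk3) or with a nontargeting siRNA (siNTC). The siRNA dose was 1.25 nM per square centimeter, and RNA was taken 48 h later from 4 libraries per group. A single pool of siRNA against Erk3 was compared, and nothing in the sources says whether the 4 libraries of a group came from separate cultures, so a p-value here covers the spread between libraries, which may be technical.

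The proteasome is the main protease for ubiquitin-marked proteins in the cytosol and nucleus. Its core particle is a barrel of alpha rings, which gate the entry, around beta rings, in which Psmb5, Psmb6 and Psmb7 carry the active sites. The regulatory particle, built from the Psmc ATPases and the Psmd subunits, binds, unfolds and feeds in the substrate. Under interferon, newly built particles take up Psmb8 in place of Psmb5, Psmb9 in place of Psmb6 and Psmb10 in place of Psmb7, and such an immunoproteasome cuts more peptides that fit MHC class I molecules. Psme1 and Psme2 encode the alpha and beta subunits of PA28, a cap that opens the barrel without ATP. Adipocytes, like most cells, carry the constitutive particle, and transcription of its genes as a group is raised by NFE2L1 when proteasome activity is short.

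Psmb9 and Psmb8 lie together on chromosome 17 of mm10, and the peptide transporter genes Tap1 and Tap2 lie with them. Psmb9 (ENSMUSG00000096727) spans 34181987 to 34187764 on the minus strand, and Psmb8 (ENSMUSG00000024338) spans 34197721 to 34201454 on the plus strand. The annotated exons of Psmb9 and Tap1 overlap by 212 bases on opposite strands, Psmb8 starts 495 bases after the end of Tap1, and Tap2 follows Psmb8 after 2072 bases. Psme1 and Psme2 are neighbors on chromosome 14 and lie 5911 bases apart on opposite strands. Windows of 300 bases, from 250 before to 50 after the start in RefSeq, were available from RefSeq (GRCm38.p6) for 41 of the 51 genes, in 44 windows. Each was searched on both strands for TTCNNNGAA, the gamma interferon activated sequence (GAS), for GAAANNGAAA, the core of the interferon-stimulated response element (ISRE), and for TGACNNNGC, the core of the element bound by NFE2L1. The windows of 3 genes held the GAS letters (Psmb8, Psmd2 and Psmg1), those of 5 held the ISRE letters (Psmb3, Psmd4, Psmd9, Psme1 and Psmg4) and those of 6 held the NFE2L1 letters (Psmb5, Psmb6, Psmc6, Psmd9, Psmd12 and Psme4). Among all 32851 windows of the table, 8.30% held the GAS letters, 3.44% the ISRE letters and 12.4% the NFE2L1 letters. Of the 5 inducible genes Psmb8 and Psme1 held a match, and the Psmb9, Psmb10 and Psme2 windows held none of these letters. The windows of 2 inducible genes, of Psmb9 beside Tap1 and of both constitutive partners with a match are shown 5′ to 3′ on the gene's strand, with the matched letters in capitals. RefSeq starts differ from the outermost GENCODE ends given above for Psmb8 and Psmb9, and positions of matches are counted from the RefSeq start.
Psmb8, chr17:34197945-34198244, plus strand, GAS letters starting 97 bases before the start: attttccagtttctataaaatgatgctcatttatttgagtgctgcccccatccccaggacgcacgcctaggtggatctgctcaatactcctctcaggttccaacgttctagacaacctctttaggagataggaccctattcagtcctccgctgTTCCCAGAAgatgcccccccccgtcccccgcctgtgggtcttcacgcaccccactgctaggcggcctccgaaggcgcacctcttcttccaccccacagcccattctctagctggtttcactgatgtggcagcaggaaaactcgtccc
Psme1, chr14:55578244-55578543, plus strand, ISRE letters on the opposite strand, from base 10 after the start: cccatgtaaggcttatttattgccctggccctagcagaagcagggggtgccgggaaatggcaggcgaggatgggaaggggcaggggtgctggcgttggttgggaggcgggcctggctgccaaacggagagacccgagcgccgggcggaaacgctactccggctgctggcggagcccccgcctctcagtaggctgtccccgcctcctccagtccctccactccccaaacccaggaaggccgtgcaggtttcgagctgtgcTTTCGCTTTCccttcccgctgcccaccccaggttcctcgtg
Psmb9, chr17:34187281-34187580, minus strand, no match: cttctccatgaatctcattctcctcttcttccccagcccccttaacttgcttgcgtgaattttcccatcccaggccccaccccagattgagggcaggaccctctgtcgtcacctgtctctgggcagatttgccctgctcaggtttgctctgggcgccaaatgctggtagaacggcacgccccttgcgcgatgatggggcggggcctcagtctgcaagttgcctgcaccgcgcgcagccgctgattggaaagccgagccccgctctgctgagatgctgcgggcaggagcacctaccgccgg
Psmb5, chr14:54617946-54618245, minus strand, NFE2L1 letters starting 47 bases before the start: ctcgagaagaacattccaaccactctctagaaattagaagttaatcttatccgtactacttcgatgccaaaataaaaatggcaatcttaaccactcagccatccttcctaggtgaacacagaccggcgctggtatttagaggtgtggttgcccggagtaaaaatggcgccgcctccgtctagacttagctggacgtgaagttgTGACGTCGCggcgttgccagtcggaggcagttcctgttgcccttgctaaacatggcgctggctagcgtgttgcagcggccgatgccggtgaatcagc
Psmb6, chr11:70525107-70525406, plus strand, NFE2L1 letters starting 9 bases before the start: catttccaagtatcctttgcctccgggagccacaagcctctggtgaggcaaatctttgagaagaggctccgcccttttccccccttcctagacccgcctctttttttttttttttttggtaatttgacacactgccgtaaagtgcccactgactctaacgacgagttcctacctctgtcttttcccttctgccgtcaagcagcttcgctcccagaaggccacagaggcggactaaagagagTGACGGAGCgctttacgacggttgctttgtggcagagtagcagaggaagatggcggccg

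Levels are given as CPM, the count scaled to a common library size with factors from the trimmed mean of M values (TMM), and fold changes are siErk3 over siNTC from edgeR's quasi-likelihood test, with p-values adjusted over all 17972 genes tested (Benjamini-Hochberg) and a gene called at an adjusted p under 0.05. Mapk6, the gene of Erk3, had 69.6 ± 4.80 CPM in siErk3 and 579 ± 18.1 CPM in siNTC libraries (SD, n = 4 each). Total counts were 9854522 to 9943572 per library. Over all genes 4470 were called higher and 4275 lower, so that 51.1% of the calls were higher, against 65.1% with library sizes alone and 39.7% with upper-quartile factors. The 8 adipocyte markers checked (Adipoq, Fabp4, Plin1, Cidec, Pparg, Lpl, Cfd and Retn) were abundant, with summed levels of 16742 to 17804 CPM in siErk3 and 29210 to 31476 CPM in siNTC libraries. All 8 were called lower, as were 23.8% of all genes. Their log2 fold changes ran from -1.71 for Retn to -0.13 for Pparg (adjusted p 0.0385). Of 14 leukocyte markers 4 had a value (Cd68, Csf1r, Cd14 and Itgax) and summed to 23.4 to 27.3 CPM in siErk3 and 12.0 to 16.8 CPM in siNTC libraries. Cd14 (log2 fold change 1.69, adjusted p 4.7e-10) and Cd68 (1.05, adjusted p 0.00426) were called higher, and Csf1r (-0.08) and Itgax (0.13) were not called. Every gene in the count table reached 1 CPM in at least 4 libraries. Cd68, at 0.522 to 1.15 CPM in siNTC libraries, met this mainly through siErk3 libraries, where it was high. A higher call for it was thus favored in advance. Of 6 endothelial markers Pecam1 alone had a value, 1.35 CPM in siErk3 and 0.914 CPM in siNTC libraries. Pecam1 also met that floor mainly through siErk3 libraries. The defining leukocyte genes Ptprc, Itgam, Adgre1 and Lyz2 were not in the count table, in which every gene reached 1 CPM in at least 4 libraries. The part of these markers in the results on the proteasome was not tested, and in bulk RNA fewer cells with a transcript and less of it per cell cannot be told apart.

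The inducible genes of the proteasome rose in siErk3 adipocytes, Psmb9 and Psmb8 by more than 12-fold, while the constitutive genes as a rule rose slightly or did not pass the test. All 5 inducible genes were called higher, where 24.9% of all genes were. Their summed level was 415 ± 11.8 CPM in siErk3 and 101 ± 6.0 CPM in siNTC libraries (SD, n = 4 each). Of the 41 constitutive genes 26 were called higher, 1 lower (23.8% of all genes were called lower) and 14 did not pass the test. The median log2 fold change of the 41 was 0.22, against 1.78 over the 5 inducible genes and 0.00 over all genes tested. All 5 inducible genes and 23 of the 41 constitutive genes (22 higher, 1 lower) had groups that did not overlap, which held for 43.2% of all genes. A rise of at least 2-fold was called for 4.11% of all genes and for 5 of the 51, namely Psmb8, Psmb9, Psmb10, Psme1 and Psmf1.

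**Figure D1:**
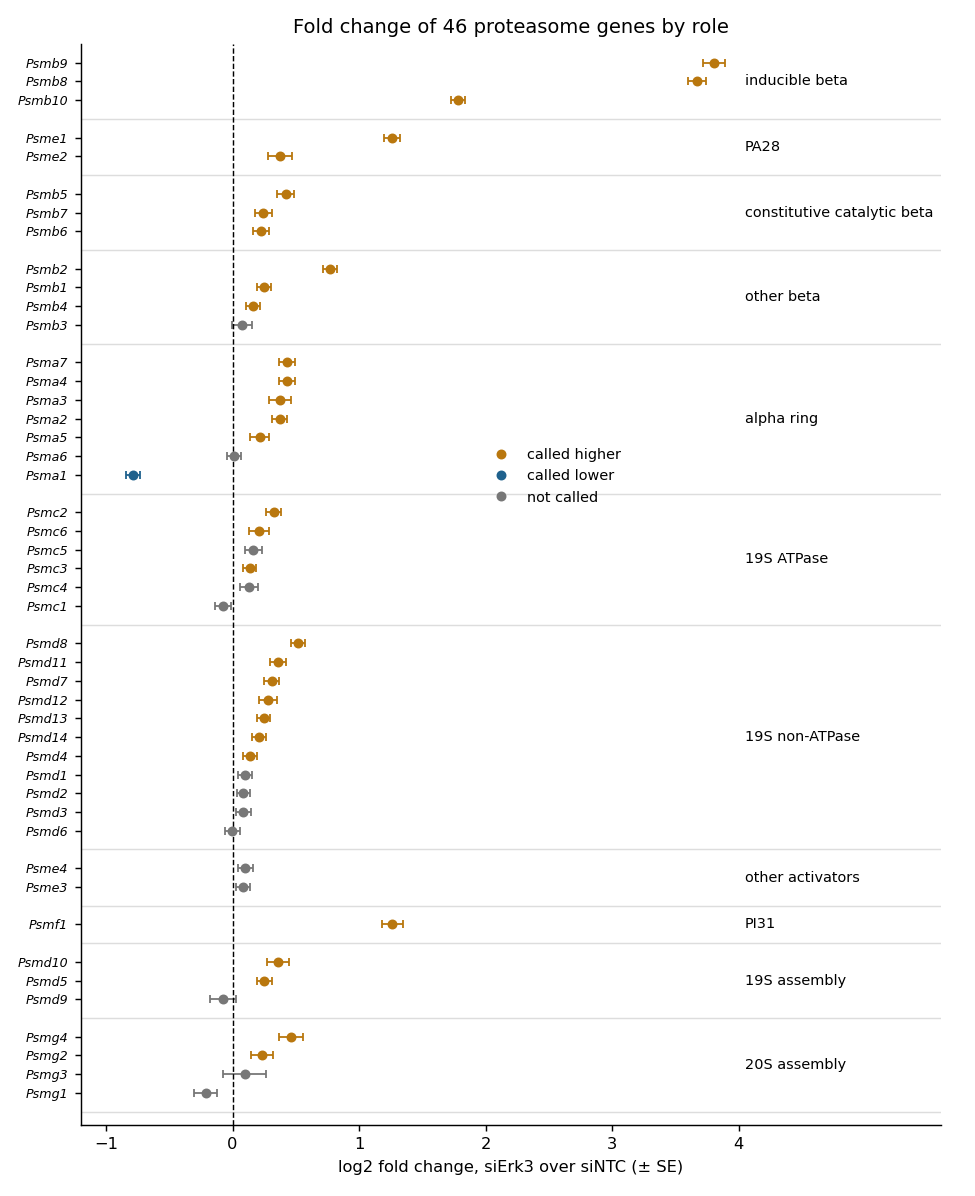
Log2 fold change (siErk3 over siNTC, x axis) of the 46 subunit and assembly genes, grouped by role from top to bottom, with bars for the standard error. The dashed line is the median of all genes tested, and Psmb9, Psmb8 and Psmb10 lie at 3.80, 3.67 and 1.78, far to the right of Psmb5, Psmb7 and Psmb6 at 0.42, 0.24 and 0.23.

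Psmb8 encodes beta5i, the inducible form of the chymotrypsin-like subunit. It had 130, 127, 120 and 116 CPM in siErk3 libraries, against 9.37, 8.88, 9.50 and 10.9 CPM in siNTC libraries. Every siErk3 library was above every siNTC library by a wide margin. The fold change was 12.7, with a log2 fold change of 3.67 ± 0.07 (SE) and an adjusted p of 5.1e-22. An antisense gene, Gm20496, overlaps 498 bases of the Psmb8 exons and moved with it, to 111 CPM in siErk3 against 12.5 CPM in siNTC libraries. Because the kit does not mark the strand, reads in the overlap cannot be given to one of them, and their part in the Psmb8 counts was not tested.

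Psmb9 encodes beta1i, which replaces the caspase-like subunit. It was at 61.2, 61.0, 59.1 and 58.4 CPM in siErk3 and at 4.69, 3.62, 4.80 and 4.00 CPM in siNTC libraries. The siErk3 libraries lay within a few CPM of each other, and the groups did not overlap. This was a 14-fold difference (log2 fold change 3.80 ± 0.09, adjusted p 9.8e-21), the largest of the 51 genes. Tap1, which shares 212 exon bases with Psmb9, had 244 ± 6.23 CPM in siErk3 and 20.1 ± 1.92 CPM in siNTC libraries. Reads in the shared bases cannot be given to one of them, and their part in the Psmb9 counts was not tested.

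Psmb10 (ENSMUSG00000031897, chromosome 8, 105935735 to 105938444) encodes beta2i, the inducible form of the trypsin-like subunit. Its levels were 143, 132, 137 and 130 CPM in siErk3 and 39.4, 37.7, 42.5 and 38.0 CPM in siNTC libraries. Thus Psmb10 was the inducible catalytic gene with the highest level in siNTC libraries, and it rose 3.44-fold (log2 fold change 1.78 ± 0.06, adjusted p 1.3e-17). No other annotated exon overlapped it, and none of its 50-base stretches recurred in another gene.

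Their constitutive counterparts changed far less. Psmb5, the chymotrypsin-like subunit, was at 51.1, 46.2, 49.4 and 52.0 CPM in siErk3 and 32.7, 36.9, 40.4 and 38.5 CPM in siNTC libraries, a 1.34-fold rise with no overlap (log2 fold change 0.42 ± 0.07, adjusted p 1.7e-05). Psmb6, the caspase-like subunit, was at 64.4, 61.7, 62.6 and 63.7 CPM in siErk3 and 56.5, 46.7, 55.5 and 57.0 CPM in siNTC libraries, which is 1.17-fold (0.23 ± 0.06, adjusted p 0.00436). Psmb7, the trypsin-like subunit, was at 107, 104, 107 and 93.5 CPM in siErk3 and 82.1, 78.5, 91.3 and 95.5 CPM in siNTC libraries. Its groups overlapped, since siNTC replicate 4 was above siErk3 replicate 4, and its rise was 1.18-fold (0.24 ± 0.06, adjusted p 0.00301). Nek6, on the opposite strand, overlaps 405 bases of the Psmb7 exons and had 69.9 CPM in siErk3 and 51.0 CPM in siNTC libraries. Reads in this overlap cannot be given to one of them, and their part in the Psmb7 counts was not tested. None of these catalytic genes was lower in siErk3 libraries under any of the 17 other settings tried.

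**Figure D2:**
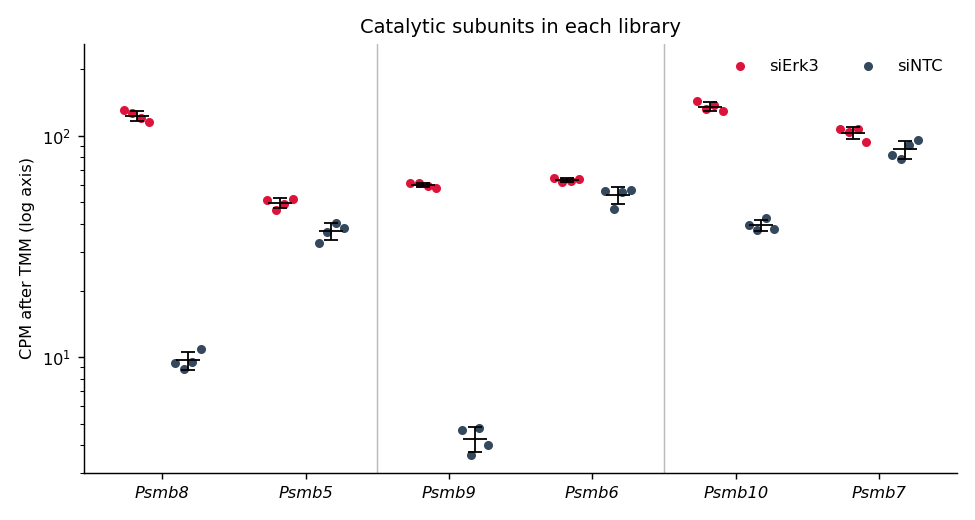
CPM after TMM (log axis) of each inducible catalytic gene beside its constitutive counterpart, with siErk3 libraries left of siNTC libraries. Points are libraries, and bars are the mean and SD (n = 4). Psmb8 is above Psmb5 in siErk3 (116 to 130 against 46.2 to 52.0 CPM) and below it in siNTC libraries (8.88 to 10.9 against 32.7 to 40.4 CPM). CPM take no account of gene length, and the order in siErk3 depends on the length used.

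Transcript levels of each inducible gene and its counterpart were then compared within each library as a ratio, a measure that the scaling between libraries does not enter. The CPM of Psmb8 over that of Psmb5 was 2.55, 2.74, 2.43 and 2.22 in siErk3, against 0.287, 0.241, 0.235 and 0.284 in siNTC libraries. Psmb9 over Psmb6 was 0.949, 0.989, 0.944 and 0.916 in siErk3, against 0.0830, 0.0774, 0.0865 and 0.0701 in siNTC libraries. Psmb10 over Psmb7 was 1.34, 1.27, 1.28 and 1.39 in siErk3, against 0.480, 0.480, 0.465 and 0.398 in siNTC libraries. In all 3 pairs the lowest siErk3 library was above the highest siNTC library. With a pseudocount of 0.5 CPM, the difference of the mean log2 ratio (siErk3 minus siNTC) was 3.19 for Psmb8 over Psmb5, 3.44 for Psmb9 over Psmb6 and 1.52 for Psmb10 over Psmb7. The SD of the log2 ratio within a group was at most 0.15. Scaling enters these values only through the pseudocount. Without it the differences were 3.25, 3.59 and 1.54, in the same order. Each difference had p = 0.0286 in an exact two-sided permutation test, which is the smallest p that 4 against 4 libraries allow, and 0.0286 after adjustment over the 3 ratios.

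**Figure D3:**
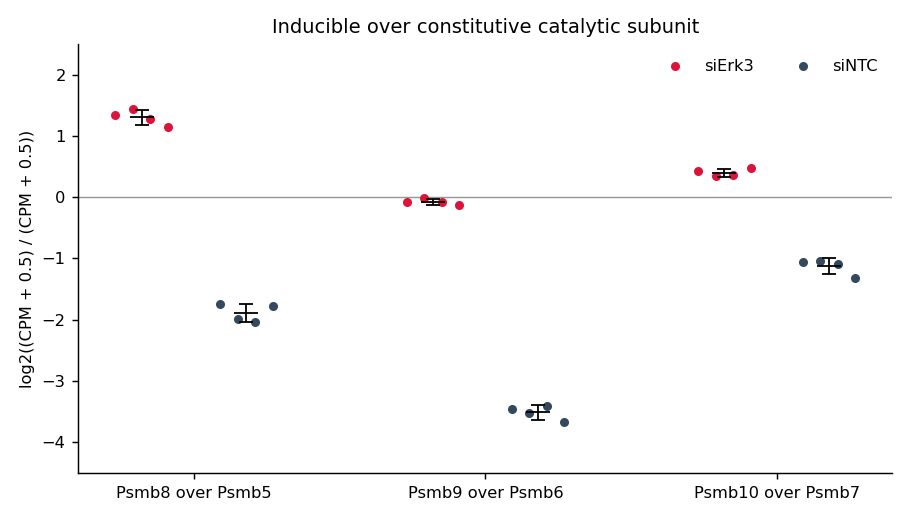
Log2 ratio of inducible to constitutive catalytic gene (y axis, pseudocount 0.5 CPM) in each library, siErk3 left of siNTC, with mean and SD (n = 4). The mean for Psmb8 over Psmb5 is 1.30 in siErk3 and -1.89 in siNTC libraries, and the horizontal line marks equal CPM.

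To compare levels between genes the CPM were divided by length. Per kb of annotated exon, Psmb8 made up 39.8 ± 2.10% of the sum of Psmb8 and Psmb5 in siErk3 and 6.50 ± 0.64% in siNTC libraries (SD, n = 4 each). On the same scale Psmb9 made up 32.7 ± 0.69% of the sum with Psmb6 in siErk3 and 3.90 ± 0.34% in siNTC libraries. Psmb10 made up 72.5 ± 0.82% of the sum with Psmb7 in siErk3 and 47.7 ± 2.24% in siNTC libraries. These shares hang on the length used, since Psmb8 has 3381 bases of annotated exon, 1907 in its longest transcript and 828 of coding sequence, while Psmb5 has 899, 899 and 792. Across the lengths, and with reads of copies added, the Psmb8 share was between 25.2% and 70.3% in siErk3 and between 3.26% and 19.99% in siNTC libraries, so that the shares are no measure of the makeup of the particle. In each of them the siErk3 share was above the siNTC share. For the lengths this follows from the ratios above, since a fixed length cannot change the order of the groups.

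The genes of PA28 rose unequally. Psme1, for PA28 alpha, had 73.9, 72.5, 81.7 and 74.7 CPM in siErk3, against 32.6, 28.7, 34.2 and 30.6 CPM in siNTC libraries, 2.40-fold higher (log2 fold change 1.26 ± 0.06, adjusted p 7.5e-14). Psme2, for PA28 beta, had 20.5, 20.6, 18.7 and 22.5 CPM in siErk3, against 13.6, 14.6, 17.0 and 18.2 CPM in siNTC libraries, 1.30-fold higher (0.38 ± 0.10, adjusted p 0.00223). Both had groups without overlap, although the lowest siErk3 and the highest siNTC library of Psme2 were less than 1 CPM apart. Psme2 shares 541 of its 50-base stretches with Psme2b, which is 68.7% of the stretches of Psme2b, and reads from these cannot be told apart. Psme2b held most of the counts, with 153, 149, 148 and 152 CPM in siErk3, against 110, 101, 113 and 115 CPM in siNTC libraries. With both summed, PA28 beta was at 171 ± 3.52 CPM in siErk3 and 126 ± 7.71 CPM in siNTC libraries, a log2 fold change of 0.45. Psme1 summed with its pseudogenes Gm46496 and Gm7776 was at 164 ± 6.16 CPM in siErk3 and 69.4 ± 5.92 CPM in siNTC libraries, a log2 fold change of 1.24. The other activators did not pass the test. Psme3, which encodes the nuclear PA28 gamma, had a log2 fold change of 0.08 (adjusted p 0.224), and Psme4, which encodes PA200, one of 0.10 (adjusted p 0.176). With library sizes alone, both were called higher (0.17 and 0.18).

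Psmf1 encodes PI31, which inhibits the isolated core particle in vitro and binds proteasomes in cells. It had 61.5, 72.7, 74.5 and 71.1 CPM in siErk3, against 30.2, 23.2, 33.4 and 29.7 CPM in siNTC libraries. The groups did not overlap, and siErk3 replicate 1 was the lowest of its group. Its 2.40-fold rise (log2 fold change 1.26 ± 0.08, adjusted p 8.8e-12) was the largest among the 41 constitutive genes and about that of Psme1. No stretch of Psmf1 recurred elsewhere and no annotated exon overlapped it.

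Among the core subunits without an active site, most rose a little, 1 rose more and 1 fell. In the outer alpha ring 5 of the 7 genes measured were called higher and 1 lower (24.9% and 23.8% of all genes). Psma7 was highest of them by fold, with 98.7 ± 5.07 CPM in siErk3 and 73.3 ± 5.44 CPM in siNTC libraries (log2 fold change 0.43 ± 0.06, adjusted p 2.4e-06). Psma6, the one that did not pass the test, was at 124 ± 3.26 CPM in siErk3 and 123 ± 7.49 CPM in siNTC libraries. Psma1, for alpha6, was the only constitutive gene called lower. It had 178, 197, 188 and 195 CPM in siErk3, against 315, 320, 311 and 362 CPM in siNTC libraries. All siErk3 libraries were below all siNTC libraries, and siNTC replicate 4 stood above the other siNTC libraries. The level was 0.579 times that of siNTC (log2 fold change -0.79 ± 0.06, adjusted p 5.1e-11). It was lower and called under all 17 other settings, including every fit without 1 library. Psma1 (ENSMUSG00000030751, chromosome 7, 114264606 to 114276118, minus strand) shared no 50-base stretch with another gene and overlapped no other exon. In siNTC libraries its CPM was the highest of the 51 genes, and its fall took the summed CPM of the alpha ring to 586 ± 4.71 in siErk3, against 659 ± 36.0 in siNTC libraries, although 5 of its genes rose.

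In the beta ring Psmb2, the beta4 subunit, had 61.9, 66.1, 63.6 and 61.4 CPM in siErk3, against 37.1, 35.3, 37.1 and 38.8 CPM in siNTC libraries. The groups lay far apart against their spread, and the rise was 1.71-fold (log2 fold change 0.77 ± 0.06, adjusted p 9.4e-11), which put Psmb2 next after Psmf1 among the constitutive genes. Psmb1 and Psmb4 were called higher as well (0.25 ± 0.06 and 0.16 ± 0.05), and Psmb3 was not (0.07 ± 0.08, adjusted p 0.478).

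**Figure D4:**
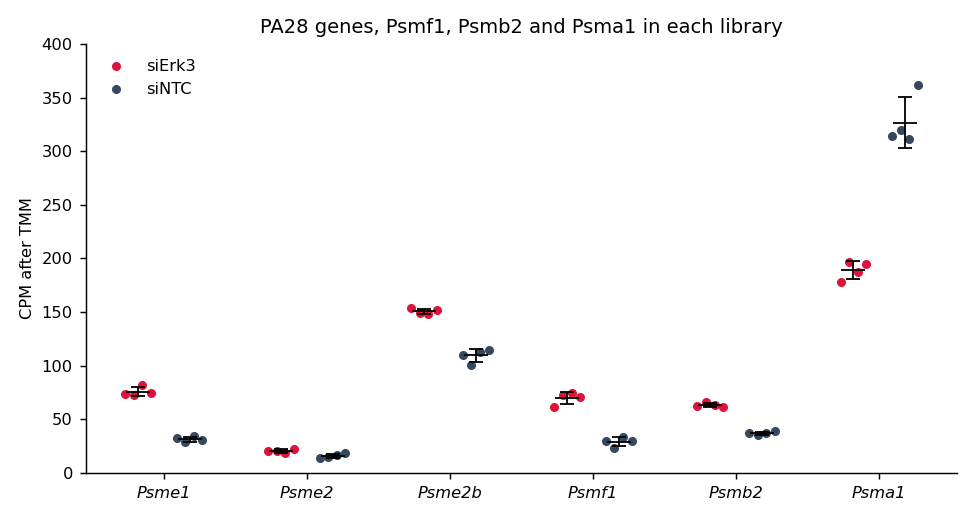
CPM after TMM of the PA28 genes Psme1 and Psme2, the copy Psme2b, Psmf1, Psmb2 and Psma1 in each library, siErk3 left of siNTC, with mean and SD (n = 4). Psma1 is the gene with siErk3 libraries (178 to 197 CPM) below siNTC libraries (311 to 362 CPM), and the others are higher in siErk3.

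The Psm genes of the regulatory particle rose slightly or did not pass the test. Of the 6 ATPase genes 3 were called higher and none lower (24.9% and 23.8% of all genes), with log2 fold changes between -0.07 and 0.32. The calls of Psmc3 and Psmc6 depended on the setting, as given below. Psmc2, for Rpt1, was at 55.4 ± 3.76 CPM in siErk3 and 44.3 ± 1.54 CPM in siNTC libraries (0.32 ± 0.06, adjusted p 0.000115), and Psmc1, for Rpt2, at 42.3 ± 1.54 CPM in siErk3 and 44.6 ± 3.06 CPM in siNTC libraries (-0.07 ± 0.06, adjusted p 0.355, and 0.01 with library sizes alone). Of the 11 other subunits with a Psm symbol 7 were called higher and none lower, beside the same shares of all genes. Psmd8, for Rpn12 of the lid, had the largest fold change of the regulatory particle, with 112, 114, 116 and 109 CPM in siErk3, against 73.8, 75.6, 83.0 and 83.9 CPM in siNTC libraries (0.51 ± 0.06, adjusted p 5.1e-08). Its groups did not overlap. Psmd6, for Rpn7, was at 50.8 CPM in both groups (adjusted p 0.997), and its sign changed with the setting. Summed over these 17 Psm genes, the level was 1268 ± 23.2 CPM in siErk3 and 1112 ± 29.5 CPM in siNTC libraries, a ratio of 1.14. Left out are Sem1 and Adrm1, whose symbols do not match the rule. Sem1, a small subunit of the lid, was called lower (-0.17 ± 0.06, adjusted p 0.0156). Adrm1 was not called (-0.14 ± 0.06, adjusted p 0.0670), although its siErk3 libraries were all below its siNTC libraries.

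Of the chaperones of the regulatory particle 2 of 3 passed the test, and of those of the core particle 2 of 4. Each of these was called higher, as were 24.9% of all genes. Psmd10, which encodes gankyrin, a chaperone of the ATPase ring, was at 19.1 ± 0.74 CPM in siErk3 and 14.9 ± 1.36 CPM in siNTC libraries (log2 fold change 0.36 ± 0.09, adjusted p 0.00144). Psmd5 was called higher too (0.25 ± 0.06), and Psmd9 was not called (-0.08 ± 0.10, adjusted p 0.553, and 0.01 with library sizes alone). Psmd9 shares 1849 exon bases with the antisense gene Gm26745, which had more than 10 times its CPM. Of the chaperones that build the alpha ring, Psmg4 was at 14.7 ± 0.75 CPM in siErk3 and 10.7 ± 0.70 CPM in siNTC libraries (0.46 ± 0.10, adjusted p 0.000315), and its partner Psmg3 was not called (0.10 ± 0.17, adjusted p 0.674). Psmg2 was called higher (0.23 ± 0.09, adjusted p 0.0290), while its partner Psmg1 had 14.9 ± 1.39 CPM in siErk3 and 17.3 ± 0.69 CPM in siNTC libraries (-0.21 ± 0.09, adjusted p 0.0514). Psmg1 passed the test without siErk3 replicate 1 (-0.27, adjusted p 0.0213) and with 4 other settings, and the Psmg2 call was lost in 5 of the 17, as listed with the other calls that depended on the setting.

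How many constitutive genes passed the test hung on the scaling between libraries. With library sizes alone 33 of the 41 (80.5%) were called higher, beside 32.5% of all genes, and with upper-quartile factors 20 (48.8%), beside 19.8% of all genes. The median of the 41 was 0.30 and 0.15 under these settings, beside medians of 0.09 and -0.07 for all genes. The distance to all genes was about 0.2 on the log2 scale in each. A scaling factor moves all genes of a library alike, so this distance could hardly change and is no further test. Of the 26 genes called higher, 20 were called higher in all 17 alternatives, and Psma5, Psmb4, Psmc3, Psmc6, Psmd4 and Psmg2 lost the call in at least 1. Psmd4 was the least stable and lost its call in 11 of them, among them the fits without any 1 of the siErk3 libraries or of siNTC replicates 1, 2 and 4 (log2 fold change 0.10 to 0.15, adjusted p 0.0551 to 0.161). Without 1 library the call was also lost by Psmc3 (siErk3 replicate 1 or 3, siNTC replicate 1, 2 or 4, adjusted p 0.0647 to 0.104), Psmc6 (siErk3 replicate 1, 2 or 4, siNTC replicate 3 or 4, adjusted p 0.0554 to 0.121), Psmg2 (siErk3 replicate 2, siNTC replicate 1 or 3, adjusted p 0.0565 to 0.103), Psma5 (siErk3 replicate 1 or siNTC replicate 2, adjusted p 0.0764 and 0.113) and Psmb4 (siNTC replicate 2, adjusted p 0.0564). In the other direction Psmd2 was called higher without siNTC replicate 3 (0.12, adjusted p 0.0445), Psmd3 without siErk3 replicate 2 (0.15, adjusted p 0.0379) and Psmc5 without siErk3 replicate 4 (0.21, adjusted p 0.0217). All 5 inducible genes were called higher in every alternative.

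Several genes have copies elsewhere in the genome, mostly processed pseudogenes, which lack introns. For 14 of the 46 genes, copies that share 50-base stretches with them or carry their name (Psmb6-ps and Psmb7-ps2) had counts of their own, and whether these came from reads of the gene was not tested. The gene itself held as little as 12.6% (Psme2), 20.1% (Psma3) and 27.7% (Psma5) of the summed CPM in siNTC libraries. Psmb5 held 48.6% of its sum with Gm3375, 97.4 ± 4.42 CPM in siErk3 and 76.5 ± 6.14 CPM in siNTC libraries, and its log2 fold change on the sum was 0.35. With the copies summed in this way, a choice made after the data were seen, 27 constitutive genes were called higher, 1 lower and all 5 inducible genes higher. The difference for Psmb8 over Psmb5 was then 3.26, against 3.19 without the copies. Of the pseudogenes that matched the rule, Psmb6-ps2 had 30.9 CPM in siErk3 and 28.1 CPM in siNTC libraries, and Psmb7-ps2 had 22.5 CPM in siErk3 and 21.7 CPM in siNTC libraries. Psmb6-ps, at 2.60 CPM in siErk3 and 1.56 CPM in siNTC libraries, was the only one of them called (log2 fold change 0.73 ± 0.27, adjusted p 0.0295), and the call was lost with DESeq2 and without siErk3 replicate 2 or 4 or siNTC replicate 1 or 4 (0.50 to 0.66, adjusted p 0.0709 to 0.123). Psmc3ip was called lower (-0.61 ± 0.09, adjusted p 6.0e-06), and so was Mlx, which overlaps 385 bases of its exons (-0.36 ± 0.07).

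Among genes whose products bind the proteasome, help to build it or bring substrates to it, changes were small. Of 21 listed genes 20 were tested, of which 11 were called higher and 2 lower (24.9% and 23.8% of all genes), with a median log2 fold change of 0.21, against 0.00 for all genes. Zfand2a, which encodes a proteasome-binding protein induced by arsenite, had the largest value (0.52 ± 0.08, adjusted p 2.0e-05), followed by Pomp, the chaperone that completes the core particle (37.1 ± 2.90 CPM in siErk3 and 28.4 ± 2.41 CPM in siNTC libraries, 0.38 ± 0.08, adjusted p 0.000179). Uchl5, a deubiquitinase bound to the regulatory particle, had the lowest (-0.41 ± 0.11, adjusted p 0.00245), followed by Sem1, a small subunit of the lid (-0.17 ± 0.06, adjusted p 0.0156), whose call was lost without siErk3 replicate 3 (-0.14, adjusted p 0.0700) and with library sizes alone. Nfe2l1, for the transcription factor named above, was at 454 ± 16.2 CPM in siErk3 and 461 ± 8.94 CPM in siNTC libraries (-0.02 ± 0.05, adjusted p 0.732). Of 7 peptidases that trim or destroy proteasome products, 2 were called higher and 1 lower, a share near the 24.9% and 23.8% of all genes. Erap1, which trims peptides in the endoplasmic reticulum, was at 69.6 ± 4.64 CPM in siErk3 and 29.1 ± 2.24 CPM in siNTC libraries (1.26 ± 0.07, adjusted p 1.9e-13). Tpp2 had 0.18 ± 0.06 (adjusted p 0.0232), a call lost without any 1 of siErk3 replicate 3, siErk3 replicate 4 and siNTC replicate 3 (0.12 to 0.18) and with upper-quartile factors (0.11, adjusted p 0.161), while Npepps had -0.19 ± 0.05 (adjusted p 0.00326, and 0.0945 with library sizes alone) and Thop1 -0.10 ± 0.08 (adjusted p 0.322).

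The 6 genes reported of the MHC class I route and its regulators come from a list chosen with earlier results of these data known. All 6 were called higher, where 24.9% of all genes were. Their median log2 fold change was 2.07, against 0.00 for all genes. Tap1 had the largest (3.60 ± 0.07, adjusted p 7.6e-23) and was followed by Nlrc5, which activates transcription of MHC class I genes (104 ± 6.85 CPM in siErk3 and 18.2 ± 0.81 CPM in siNTC libraries, 2.51 ± 0.07, adjusted p 1.6e-19). The lowest were Tap2 (0.95 ± 0.06) and Irf1, a factor that drives inducible proteasome genes (114 ± 4.03 CPM in siErk3 and 46.4 ± 3.83 CPM in siNTC libraries, 1.30 ± 0.06). Psmb8 and Psmb9 thus had log2 fold changes next to that of Tap1, the gene between them. Tap2, on the far side of Psmb8, was more than 2 log2 units lower in this measure. The counts of Psmb9 and Tap1 are not fully separate, since reads in their shared exon bases cannot be told apart.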

How the data were processed

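RNA sequencing of 8 libraries of differentiated 3T3-L1 adipocytes was used, grouped by their labels. The authors deposited raw counts, and a second table with the log2 fold change, average log2 CPM, p and adjusted p of their own edgeR comparison was not used. Their processing notes name bcl2fastq, FastQC, Bowtie2, edgeR and build mm10. How reads were counted, on which annotation and against what Bowtie2 aligned is not given in the sources used here. Run on a genome, Bowtie2 does not align reads across introns, and intronless pseudogenes can receive such reads. The kit does not mark strand. All 18088 genes reached 1 CPM in at least 4 libraries, and 0 columns were left out for want of a sample.

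Counts were analyzed in R 4.3.3 with edgeR 4.0.16 (filterByExpr, minimum count 10 and minimum total 15, TMM, quasi-likelihood test without covariates), limma 3.58.1 and DESeq2 1.42.0, and the fits were tested on simulated data. Standard errors are the log2 fold change over the square root of F. Ratios were tested by exact permutation in scipy 1.17.1 (Python 3.11.15). Coordinates, lengths and overlaps come from GENCODE M21, which held 18050 of the gene IDs. Replicates of a group differed by more than sampling noise in each pair.

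The members and lists were chosen with earlier results of these data known. The rule named Psmb5 to Psmb10, Psme1, Psme2, the highest and lowest of each other role, members changed at least 2-fold, Mapk6, and the 2 highest and 2 lowest of each further list. Other genes were named after their values were seen. 1 gene of the MHC class I list is not reported here.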

Additional observations from a re-analysis of the deposited data

Results flagged for a closer look

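In 7 of the 110 groups of 4 libraries checked (the 51 genes, Mapk6 and the 3 ratios), 1 library stood apart from the other 3 by Dixon's test, where chance flags about 1 in 20 groups. In siErk3 these were Psmd3 at 76.0 CPM in replicate 2 (others 90.5 to 91.7), Psmc3ip at 13.1 CPM in replicate 1 (others 11.2 to 11.5), Psmd1 at 103 CPM in replicate 1 (others 106.8 to 107.4) and Psma5 at 39.8 CPM in replicate 1 (others 32.8 to 33.9). In siNTC they were Psmb6 at 46.7 CPM in replicate 2 (others 55.5 to 57.0), Psma1 at 362 CPM in replicate 4 (others 311 to 320) and Psma3 at 23.1 CPM in replicate 4 (others 19.83 to 19.997). The call of Psma5 was lost without siErk3 replicate 1, and Psmd3 was called without siErk3 replicate 2, while Psma1, Psmb6 and Psma3 kept their calls without the library that stood apart.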

How the results depend on the processing

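The 17 alternatives were other normalizations, tools and filters, the replicate block, leaving out each library and, added after the data were seen, the copies summed. All 5 inducible genes were called higher in each. Without 1 library, 22 to 25 constitutive genes were called higher, 1 to 2 lower and 7956 to 8481 genes in all. Constitutive genes called lower were 2 in place of 1 with RLE factors, upper-quartile factors, the filter of 5 CPM in 4 libraries, limma-voom and without siErk3 replicate 1, the added gene being Psmg1. DESeq2 called 22 of the constitutive genes higher. The replicate numbers did not pair the libraries (correlations of same-numbered deviations -0.02 to 0.06). With the replicate block, 27 constitutive genes were called higher and 8793 genes in all. The ratio differences under this pairing were 3.19, 3.44 and 1.52, each with p = 0.125, the smallest p that 4 pairs allow in an exact sign-flip test. Without 1 library they were 3.14 to 3.24, 3.38 to 3.48 and 1.46 to 1.55.

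Sign changes concerned genes not called. Psmd6 was at 0.087 with library sizes alone, -0.024 to 0.036 without 1 library (above 0 without siErk3 replicate 2 or 4 or siNTC replicate 4), 0.00027 with limma-voom and 0.00018 with copies summed, and Psmc1 was at 0.014 and Psmd9 at 0.0081 with library sizes alone. Psma6 (0.01 as reported) was at -0.060 with upper-quartile factors and below 0 without siNTC replicate 1 or 2, Psmg3 (0.10) was at -0.044 without siErk3 replicate 4, and Psmb7-ps2 (0.05) reached -0.021. Shares per length moved most. With the longest transcript, the siErk3 shares were 53.9% for Psmb8, 24.1% for Psmb9 and 74.1% for Psmb10, and the siNTC shares 11.0% for Psmb8 and 2.59% for Psmb9. With coding length, the siErk3 shares of Psmb8, Psmb9 and Psmb10 were 70.3%, 50.8% and 57.2%, and their siNTC shares 19.99%, 7.93% and 31.6%. With copies summed, the siErk3 shares were 25.2%, 24.1% and 68.4%, and the siNTC shares 3.26%, 2.55% and 42.2%. Genes such as Psmg3, at 6.46 CPM in siErk3 and 6.05 CPM in siNTC libraries, rest on few counts.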

Other observations

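Some values beside Psma1 stand in no comparison above and were looked up after its fall was seen. Its nearest neighbor in the count table on one side, Copb1, a coat protein of Golgi vesicles 9894 bases away on the same strand, had a log2 fold change of -0.13 (adjusted p 0.0542), and Gm45454, 55517 bases away on that side, had -0.47 (adjusted p 0.00114). On the other side 4933406I18Rik, 39360 bases away, had -1.0, and Pde3b, a phosphodiesterase that lowers cAMP in adipocytes, 139162 bases away on the opposite strand, had 188 ± 10.2 CPM in siErk3 and 392 ± 51.2 CPM in siNTC libraries (-1.06, adjusted p 2.3e-11). Mir686, an annotated miRNA of 109 bases inside a Psmb5 exon, had 12.8 CPM in siErk3 and 10.03 CPM in siNTC libraries of poly(A) RNA.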
